A study of Mus musculus with 4 samples.

Results

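Cartpt is 1 gene of the 20136 listed in 4 tables of single-cell counts from the BNST. This nucleus, the bed nucleus of the stria terminalis, is part of the extended amygdala in the forebrain. It was chosen because earlier work on these tables had shown where it is expressed. The choice rested on its level and share of cells across neurons and glia and on its co-detection with Pnoc, Cck, Tac2 and Sst, so those values are given as a description, with no test. The mice were wildtype C57BL/6J males. Tissue punches of 6 animals were pooled for each of 4 libraries, so 24 animals contributed, and library and pool cannot be told apart. All libraries belong to 1 untreated group, and the ages of the mice were not given in the sources used here. Cells were captured by Drop-seq, in which beads with cell barcodes catch the RNA of single cells and a unique molecular identifier (UMI) lets every caught molecule be counted once.

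Cartpt encodes the precursor of the CART peptides, named for a transcript regulated by cocaine and amphetamine. Prohormone convertases cut the precursor inside secretory granules, and the peptides are stored in dense-core vesicles and released as neurotransmitters. CART is known for its part in feeding, stress and reward, and transcription of its gene can be raised by cyclic AMP (cAMP) through the factor CREB. No CART receptor has been generally accepted, and Gpr160 is a proposed one.

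In the GENCODE vM21 annotation of GRCm38, a build that the submitters' processing notes also name, Cartpt lies on chromosome 13, minus strand, from 99898489 to 99901091. It has 2 transcripts, and no other listed gene overlaps it. A cAMP response element, TGACGTCA, lies 112 bases upstream of its RefSeq start site, at 99900788 to 99900795, inside the longer first exon of the GENCODE transcript Cartpt-202. Sst has the same element 48 bases upstream of its start, and the 250 bases upstream of Cck and of Tac2 hold no such match on either strand. RefSeq promoter windows (GRCm38.p6) were found for these 4 genes and not for Pnoc. The element is shown because genes of the cAMP pathway are examined below in Cartpt-positive cells. Its 8 bases are in capitals within 30 bases of the minus strand, read 5′ to 3′, at chr13:99900777-99900806 for Cartpt and chr16:23890874-23890903 for Sst.
Cartpt: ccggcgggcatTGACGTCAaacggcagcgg
Sst: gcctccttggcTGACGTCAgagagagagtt
The 8-base element is its own reverse complement, and 1.55% of 32851 windows of the same length held it, so the match describes these letters only. The count tables tag the 3′ ends of transcripts and hold no measurement at this site.

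The tables held 10200 barcodes and 14018026 UMIs, of which 5593 were Cartpt UMIs. After filtering, 837 to 1281 cells per library were kept (4181 in all), with 2119143 to 4842995 UMIs per library and library 1 the deepest. No barcode was shared between libraries among kept cells, and 11 were shared among all barcodes. Cells were gated by marker UMIs. A cell entered a class when it had at least 2 UMIs of the class's markers and at least 3 times as many as of every other class. The markers were Gad1, Gad2 and Slc32a1, which make or load GABA, for GABAergic neurons, and Slc17a6 and Slc17a7, vesicular glutamate transporters, for glutamatergic neurons. This gave 2127 GABAergic neurons, 76 glutamatergic neurons, 927 oligodendrocytes, 390 astrocytes, 153 oligodendrocyte precursors, 10 microglia and 67 vascular cells. In each of these classes the median number of UMIs of every other class's markers was 0, and 117 GABAergic cells stood at the minimum of 2 UMIs. The remaining 431 cells entered no class.

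Cartpt RNA was found mainly in GABAergic neurons. Of the 4998 Cartpt UMIs in kept cells, 94.2% were in gated GABAergic neurons. Their level was 615.4, 513.2, 510.6 and 439.9 CPM (UMIs of the gene scaled to a total of 1000000 UMIs) in libraries 1 to 4, a mean of 519.8 ± 72.2 (SD, n = 4). The 4 pools were thus close to each other, with library 1 highest and library 4 lowest. With cells limited to at most 5% mitochondrial UMIs in place of 10%, the mean was 420.3 CPM.

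Glutamatergic neurons held 7 Cartpt UMIs in 3 of 76 cells (3.95% of cells, exact 95% interval 0.822% to 11.1%). Their level was 7.46 CPM in library 1 and 120.2 CPM in library 3, with no UMI in libraries 2 and 4, and 5 of the 7 UMIs came from 1 cell of library 3. Libraries 2, 3 and 4 held only 16, 7 and 12 such cells, so that 1 cell set the mean of 31.9 ± 59.0 CPM (SD, n = 4). Without library 3 the mean was 2.49 CPM, with at least 4 marker UMIs it was 2.21, and with at most 5% mitochondrial UMIs no Cartpt UMI was left.

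Glia had little Cartpt. The 1480 gated glial cells held 25 Cartpt UMIs in 24 cells, at 9.90, 8.91, 7 and 24.9 CPM in libraries 1 to 4 (12.7 ± 8.24, SD, n = 4). Oligodendrocytes had 18 of these UMIs (12.3 ± 8.17 CPM), astrocytes 5 (15.4 ± 12.6 CPM), oligodendrocyte precursors 2 and microglia none. With a minimum of 800 detected genes the glial mean was 4.61 CPM, and with doublets kept it was 21.9 CPM. Vascular cells also had none in 67 cells, which allows a share of up to 4.48% of cells and a level of up to 34.0 CPM. These intervals and limits cover counting error only.

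The glial counts were set against free RNA, which can give UMIs to cells that do not express a gene. The glial level of Cartpt was 2.2% of the GABAergic level, beside 1.67% for Penk and 1.14% to 1.40% for Pnoc, Cck, Tac2 and Sst. Barcodes with fewer than 200 detected genes held Cartpt at 385, 541.2, 418.2 and 318.1 CPM in libraries 1 to 4. These near-empty barcodes thus carried Cartpt in every library, above the glial level in each. The part of free RNA in the glial counts was not tested.

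The share of cells with a Cartpt UMI depends on how deeply a cell was sampled, so it was also computed at an equal depth of 1000 UMIs per cell. At that depth 16.4%, 15.2%, 15.1% and 11.2% of GABAergic neurons of libraries 1 to 4 had a Cartpt UMI (14.5% ± 2.25, SD, n = 4), over 1949 cells with 178 shallower ones left out. In glia the share was 1.23% ± 0.965 over 906 cells (574 were shallower), and in glutamatergic neurons 2.57% ± 4.32 over 72 cells (4 were shallower). The glial share was 0.498% with a minimum of 800 detected genes and 0.770% without library 4. The lowest GABAergic share of any library stood above the highest glial one, 2.61%, in library 4. Without thinning, 22.4% of GABAergic neurons and 1.62% of glia had a UMI, at median depths of 3503 and 1152 UMIs. At 2000 UMIs per cell the GABAergic share was 19.6%. Among GABAergic neurons split into depth quartiles within each library, the share of cells with a Cartpt UMI was 15.4%, 17.7%, 23.4% and 33.3% from the shallowest to the deepest, at median depths of 1236, 2771, 4364 and 7226 UMIs. At 1000 UMIs per cell it was 13.9%, 11.1%, 13.4% and 19.0%. The deepest quartile thus still had the highest share, and its level of 647.6 CPM was above the 396.8 CPM of the shallowest. The 431 cells in no class held 258 Cartpt UMIs in 50 cells, and 327 of the 431 had fewer than 2 marker UMIs of any class.

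**Figure D1:**
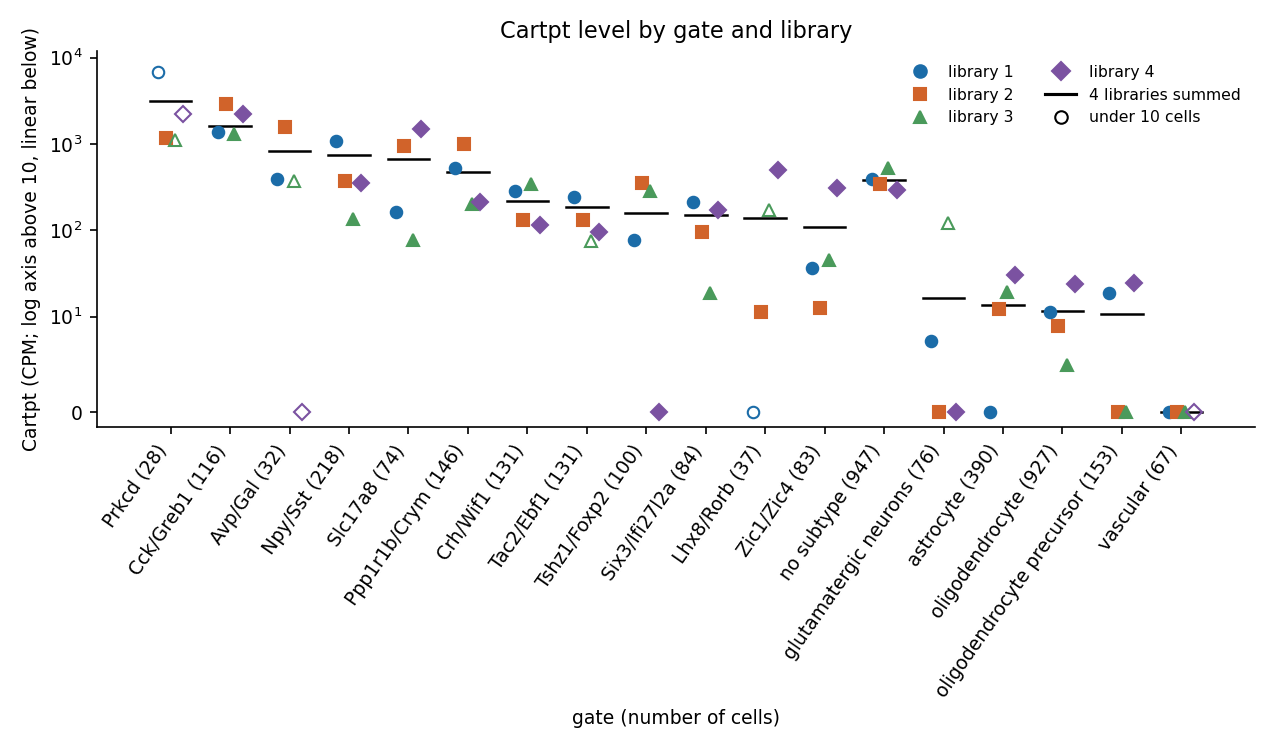
Cartpt level in CPM (log axis above 10, linear below) in each gate but microglia (10 cells, no Cartpt UMI), with 1 point per library, open where the library had under 10 cells, and a black line for the 4 libraries summed. The Prkcd and Cck/Greb1 gates stand highest in the sums, at 3107 and 1630 CPM, and the astrocyte, oligodendrocyte and oligodendrocyte precursor gates between 10.8 and 13.6 CPM.

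Among GABAergic neurons Cartpt was concentrated in few cells. A Cartpt UMI was found in 477 cells, 142 of which had exactly 1 and 106 of which had at least 10. The 106 cells held 75.9% of the Cartpt UMIs of the class, and the 48 cells of most UMIs held 57.3%. Each library had this uneven distribution. Cells with at least 10 UMIs numbered 48, 20, 20 and 18 in libraries 1 to 4 and held 81.7%, 70.8%, 74.0% and 68.5% of the UMIs. The cell of most UMIs had 190, 86, 80 and 114. Of the 106 cells, 32 lay in the Cck/Greb1 subtype gate described below, 11 each in the Prkcd and Npy/Sst gates and 28 in no subtype gate, and every other gate held 1 to 4. Leaving out the cell of most UMIs in each library, an alternative added after seeing the data, lowered the GABAergic mean to 467.3 CPM and left the share at 1000 UMIs at 14.3%.

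**Figure D2:**
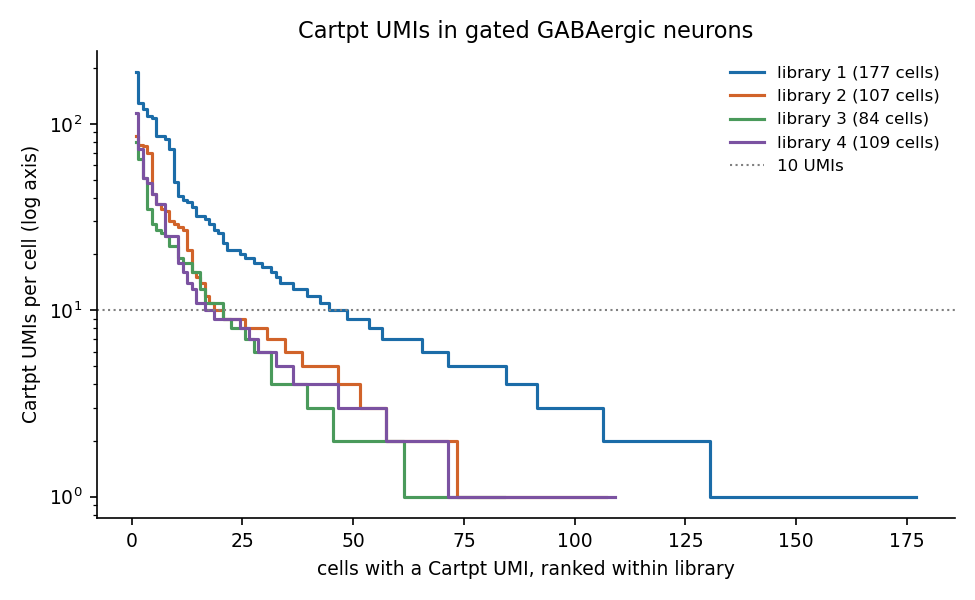
Cartpt UMIs per cell (log axis) in the gated GABAergic neurons that had at least 1, ranked within each library. All 4 curves fall steeply over the first 20 or so cells and end in a long run of cells with 1 UMI, and library 1, the deepest, lies above the others.

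GABAergic neurons were then gated into 12 subtypes by marker genes taken from earlier results on these tables. A cell entered a subtype with at least 2 UMIs of its 1 or 2 marker genes and at least 2 times as many as of every other subtype. This placed 1180 of the 2127 cells. The other 947 had too few marker UMIs (743 cells) or markers of several subtypes, and their Cartpt level was 389.7 ± 99.8 CPM (SD, n = 4). The gates are ranges of marker counts and not types, and 258 of the gated cells stood at the minimum of 2 UMIs.

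The Cck/Greb1 gate was high in every library. Cck encodes cholecystokinin and Greb1 an estrogen-responsive factor. Cartpt stood at 1370, 2916, 1309 and 2238 CPM in libraries 1 to 4 (1958 ± 767, SD, n = 4), from 49, 12, 35 and 20 cells. A Cartpt UMI was found in 76 of the 116 cells, and at 1000 UMIs the share was 41.2%, 59.9%, 44.4% and 46.3%. Each of the 4 libraries was thus above the 11.2% to 16.4% of all GABAergic neurons, to which these cells also belong. With at most 5% mitochondrial UMIs the mean level of the gate was 1310 CPM.

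The Prkcd gate, named for protein kinase C delta, was small and also high. Cartpt had UMIs in 7 of 7, 6 of 11, 2 of 3 and 7 of 7 cells of libraries 1 to 4, or 22 of 28 (78.6%, exact 95% interval 59.0% to 91.7%). The levels were 6893, 1165, 1118 and 2249 CPM, and 3107 CPM with the libraries summed. Only library 2 had the 10 cells required for a mean, so none is given. Library 1 supplied 344 of the 517 UMIs, and without it the summed level was 1485 CPM, below the 1818 CPM of the Cck/Greb1 gate without that library. At 1000 UMIs the share was 58.2%, and 51.8% without library 1. Where subtype gates were allowed to overlap, an alternative added after seeing the data, 29 of 49 cells with at least 2 Prkcd UMIs had Cartpt, at 2253 CPM.

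The Avp/Gal gate, named for vasopressin and galanin, ranked next but varied between libraries. Its levels were 393.1 and 1586 CPM in libraries 1 and 2, where it had 16 and 12 cells, and libraries 3 and 4 had 2 cells each. With overlapping gates it held 70 cells, and Cartpt stood at 1195, 3012, 2674 and 2338 CPM, so this level rested on the rule for mixed cells.

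The middle of the order was occupied by the Slc17a8 gate (671.1 ± 676 CPM), the Npy/Sst gate (486.9 ± 413) and the Ppp1r1b/Crym gate (481.3 ± 369; SD, n = 4 each). In each of them the spread between libraries was of the size of the mean. Single cells carried much of it. In the Slc17a8 gate (a vesicular glutamate transporter of the third kind), 114 of the 126 UMIs of library 4 and 70 of the 81 of library 2 were in 1 cell each. Without the cell of most Cartpt UMIs in each library the gate stood at 334.6 CPM, and without library 4 at 396.5. With at least 4 marker UMIs it stood at 1096 CPM, over libraries 3 and 4. In the Npy/Sst gate, a single cell held 190 of the 583 UMIs of library 1, and without that library the mean was 287.5 CPM. The Ppp1r1b/Crym gate, of genes known from striatal spiny neurons, had 522.6, 988.6, 201.2 and 212.9 CPM, and 312.2 without library 2. With at least 4 marker UMIs it stood at 244.7 CPM.

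The remaining gates were lower. The Crh/Wif1 gate, with corticotropin-releasing hormone, had 286.1, 131.1, 343.1 and 113.5 CPM (218.5 ± 114, n = 4). The Tac2/Ebf1 gate had 242.6, 130.3 and 95.4 CPM in the 3 libraries with 10 cells (156.1 ± 76.9). The Tshz1/Foxp2, Six3/Ifi27l2a and Zic1/Zic4 gates averaged 179.9 ± 169, 124.0 ± 85.1 and 101.3 ± 141 CPM, and the Lhx8/Rorb gate 256.6 ± 347 over 2 libraries. These means rested on few cells: 8 of 100 Tshz1/Foxp2 cells and 8 of 83 Zic1/Zic4 cells had a Cartpt UMI. The Zic1/Zic4 mean was 31.3 CPM without library 4, where 25 of 27 UMIs were in 1 cell. In the Lhx8/Rorb gate all 25 UMIs of library 4 were in 1 cell, and the mean was 11.2 CPM without that library and 501.9 without library 2. The Tshz1/Foxp2 gate had no Cartpt UMI in the 32 cells of library 4, and its mean was 94.0 CPM with at most 5% mitochondrial UMIs. With at least 4 marker UMIs the Tshz1/Foxp2 mean was 49.1 CPM, over 2 libraries. The Zic1/Zic4 value was then 599.6 CPM, from library 4 alone, the only one left with 10 cells, and 194.3 CPM with all 34 cells summed. With overlapping gates the Tshz1/Foxp2, Tac2/Ebf1 and Six3/Ifi27l2a means were 278.8, 236.5 and 201.9 CPM.

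From high to low, the gates with a mean over libraries ran Cck/Greb1, Avp/Gal, Slc17a8, Npy/Sst, Ppp1r1b/Crym, Lhx8/Rorb, Crh/Wif1, Tshz1/Foxp2, Tac2/Ebf1, Six3/Ifi27l2a, Zic1/Zic4 and then glutamatergic neurons. Only the first step, of 969 CPM from Cck/Greb1 to Avp/Gal, was larger than the SD of either neighbour, and there the ranges of the libraries still overlapped. No other pair of neighbours in this order differed beyond its spread. With overlapping gates the order of the first pair turned, with Avp/Gal at 2305 and Cck/Greb1 at 1916 CPM. With at least 4 marker UMIs the 1 library left for Zic1/Zic4 stood above the means of Npy/Sst (439.9 CPM), Ppp1r1b/Crym (244.7) and Crh/Wif1 (195.3).

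Co-detection was counted in all gated GABAergic neurons. Cck, which encodes cholecystokinin, was the partner most often found with Cartpt relative to its own number of cells. Of the 199 cells with a Cck UMI, 97 (48.7%) also had Cartpt, and these 97 were 20.3% of the 477 Cartpt cells. In libraries 1 to 4, 40 of 82, 14 of 32, 24 of 40 and 19 of 45 Cck cells had Cartpt. The odds ratio, taken within depth quartiles of each library, was 2.94, 2.49, 4.93 and 3.65, and 3.29 over all. At 1000 UMIs, 16.8% ± 5.53 of Cartpt cells and 4.00% ± 1.52 of the other cells had Cck (SD, n = 4).

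Cells with Cck had more Cartpt RNA as well. Their level was 1115, 2067, 1109 and 1597 CPM, against 528.4, 363.6, 369.9 and 310.6 CPM in cells without a Cck UMI. The ranges over libraries did not overlap. Outside the Cck/Greb1 gate, 26 of 93 cells with a Cck UMI had Cartpt, at 832.4 CPM.

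Pnoc, which encodes the precursor of nociceptin, was found with Cartpt in 149 cells. They were 33.1% of the 450 Pnoc cells and 31.2% of the Cartpt cells. The odds ratio was 1.45, 1.51, 2.28 and 1.67 in libraries 1 to 4, and 1.62 over all. At 1000 UMIs, Pnoc was found in 16.4%, 15.1%, 16.9% and 19.0% of Cartpt cells and in 10%, 9.05%, 7.35% and 7.57% of the others. Cartpt cells thus had Pnoc more often in each library. The Cartpt level of Pnoc cells was 740.4, 521.5, 869.1 and 963.3 CPM, against 539.1, 510.3, 392.4 and 289.0 CPM without Pnoc, and the groups were nearly equal in library 2.

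Cck and Pnoc overlapped in 84 cells, of which 49 had Cartpt. At 1000 UMIs the Cartpt share was 39.8% with Cck and Pnoc, 27.9% with Cck alone, 16.6% with Pnoc alone and 11.2% with neither, over the libraries together. The order of these 4 groups was the same in libraries 1, 2 and 4, except that in library 4 Cck alone and Pnoc alone were equal at 15.3%. In library 3 Cck alone, at 39.0%, exceeded Cck with Pnoc, at 36.7%. The levels ran otherwise, at 1287 CPM with Cck and Pnoc, 1375 with Cck alone, 601.9 with Pnoc alone and 351 with neither. Cck alone had the higher level of the first pair in libraries 1 to 3 and the lower in library 4 (623.2 against 2593 CPM). Inside the Cck/Greb1 gate, Cartpt was present in 40 of 57 cells with Pnoc and 36 of 59 without, at 1554 and 1723 CPM. Outside it, 109 of 393 cells with Pnoc and 292 of 1618 without had Cartpt, with shares at 1000 UMIs of 16.7% and 11.4%.

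Tac2, which encodes neurokinin B, had an odds ratio with Cartpt below 1 in 3 of 4 libraries. Of 230 Tac2 cells, 44 (19.1%) had Cartpt, and the ratio was 0.563, 0.709, 1.04 and 0.701 in libraries 1 to 4 and 0.683 over all. At 1000 UMIs, Tac2 was in 5.62% ± 0.741 of Cartpt cells and 8.39% ± 1.91 of the others, and library 3 showed no such difference, at 6.17% and 5.85%.

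Sst, which encodes somatostatin, had an odds ratio with Cartpt near 1 in libraries 1, 2 and 4. Of 266 Sst cells, 58 (21.8%) had Cartpt, and the ratio was 0.914, 0.884, 0.358 and 1.04 in libraries 1 to 4 and 0.869 over all. At 1000 UMIs, which favours cells with many UMIs of a gene, the shares with Sst were 8.47%, 6.20%, 0.501% and 8.52% of Cartpt cells and 12.4%, 7.82%, 6.95% and 9.19% of the others. The size of the difference therefore depended on the count used. The mean Cartpt level of Sst cells, 613.7 ± 212 CPM, was not below the 501.1 ± 74.9 CPM of cells without Sst. In library 3 alone Sst cells were lower, at 312.4 against 525.8 CPM.

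**Figure D3:**
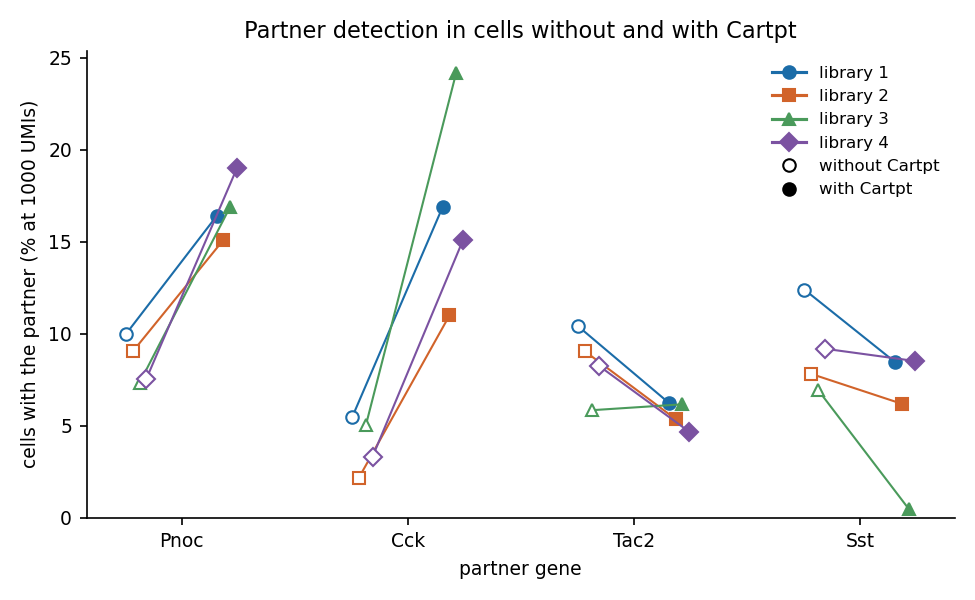
Share of gated GABAergic neurons with a UMI of Pnoc, Cck, Tac2 or Sst at 1000 UMIs per cell, in cells without (open) and with (filled) Cartpt, with 1 line per library. All 4 lines rise for Pnoc and Cck, 3 of 4 fall for Tac2, and all 4 fall for Sst, by little in library 4.

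Sst cells were not alike in Cartpt. Cells with Sst and Npy, the gene of neuropeptide Y, had 97.0, 142.0, 0 and 176.7 CPM in libraries 1 to 4, while cells with Sst and no Npy UMI had 983.6, 1040, 454.9 and 888.4 CPM. The lowest library of the second set lay above the highest of the first. Cartpt was found in 12 of 88 cells of the first set and 46 of 178 of the second, at median depths of 3829 and 4224 UMIs. Library 3 had no Cartpt in its 12 cells with Sst and Npy. Cells with Npy and no Sst UMI had 2009, 447.8, 569.1 and 304.3 CPM, above the cells with both genes in each library. Cartpt was found in 33 of these 106 cells, with a share of 24.2% at 1000 UMIs against 7.09% with both genes and 15.5% with Sst alone, over the libraries together.

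The Prkcd gate held few UMIs of the partner genes. None of its 28 cells had a Pnoc UMI, which allows a share of up to 10.7%, and 1 had Tac2. Its rule kept out cells rich in Cck, Tac2 or Sst, which mark other gates, whereas Pnoc marks no gate. Among the 49 cells with at least 2 Prkcd UMIs under overlapping gates, 5 had Pnoc, none had Cck, and none of the 29 with Cartpt had Pnoc. Of all GABAergic neurons, 1256 had none of the 4 partners, and 235 of these had Cartpt.

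Genes with a pattern like that of Cartpt were ranked by Pearson r of log2(CPM + 1) over the 12 subtype gates and the glutamatergic gate. Among 7766 genes the nearest were Asun (r 0.871), Copz1 (0.823), Fip1l1 (0.814), Fam172a (0.813) and Smim14 (0.806), over 13 gates. Asun rested on 154 UMIs. Copz1 ranged only from 60.9 to 105.5 CPM over the gates, where Cartpt ranged from 16.4 to 3107 CPM. Copz1 encodes a coat subunit of vesicles in the early secretory pathway, and Fip1l1 a factor of messenger RNA polyadenylation. The ranking was not stable. Without library 1 their ranks were 159, 82, 40, 121 and 62, and without library 2 Fip1l1 fell to r 0.316 and Copz1 to 0.418. The gates differ in cell number and depth, and the points are not independent.

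To describe what else marked these cells, UMIs were summed in each library over the 477 GABAergic neurons that had Cartpt and over the 1650 that had none. The sums were compared for lists of genes on peptide processing, cAMP, dopamine and cell identity. Of the tested list genes, 8 of 18 for processing and dense-core vesicles, Tac1 and 4 of 21 for cell identity were among those higher in the Cartpt-positive sums. Npy, Crh, Zic1 and Zic4 were among those lower. Npy, Crh, Avp, Gal, Zic1, Zic4, Tshz1 and Six3 also mark subtype gates, and Cartpt levels over GABAergic subtypes entered the choice of the gene. Their values are a description, and passing the threshold is no separate support. Of 9351 genes tested with edgeR's quasi-likelihood test and Benjamini-Hochberg adjustment, 339 were past an adjusted p of 0.05, which is 3.63%, with 189 higher (2.02%) and 150 lower (1.6%). The 4 partner genes and Cartpt are left out of these counts. The positive cells were deeper, at a median of 4475 against 3241 UMIs. The count was 197 with negative cells matched on depth, 78 when matched on depth and subtype gate, 83 with at most 5% mitochondrial UMIs, 41 in cells thinned to 1000 UMIs, 78 with DESeq2 and 18 with no replicate block. Without library 1 or 4 it was 215 or 190.

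Of the 18 prohormone processing and dense-core vesicle genes tested, 8 rose and none fell, with a median log2 fold change of 0.30 against 0.001 over all genes. Past the threshold, 2.02% of all 9351 genes rose and 1.6% fell. Scg2, the precursor of secretogranin II, stood at 1848, 1957, 1737 and 1876 CPM in the positive sums of libraries 1 to 4 and at 1151, 1117, 1298 and 1034 CPM in the negative ones. The groups did not overlap, and Scg2 rose by 0.71 on the log2 scale (SE 0.05, adjusted p 1.99e-14). Vgf, a granin-like peptide precursor, rose by 1.00 (SE 0.11, adjusted p 9.35e-10), from 158.7 to 302.3 mean CPM. Ptprn, a membrane protein of dense-core vesicles, rose by 0.83 (SE 0.09) in 4 of 4 libraries. With negative cells matched on depth and subtype gate, Scg2, Vgf and Ptprn rose less, by 0.421, 0.793 and 0.555, still past the threshold. This match covered 421 of the 477 positive cells, at median depths of 4449 UMIs in positive and 4107 in negative cells. Of the 477, 181 lay in no subtype gate, where a match fixes no subtype.

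The smaller rises in this list were less firm. Cpd, a carboxypeptidase, rose by 0.76 and was at 0.54 without library 1 (adjusted p 0.116). Scg3, a granin, rose by 0.37 in 3 of 4 libraries and was not past the threshold without library 1, 2 or 4 (0.26, 0.30 and 0.39). Cadps2, a priming factor for vesicle release, rose by 0.39 and was not past it without any 1 library (0.31 to 0.45). With DESeq2 only Scg2, Vgf and Ptprn of the list passed, beside 78 of all 9351 genes. The granins Chga and Chgb had log2 fold changes of 0.31 and 0.29, both past the threshold. The convertases that cut such precursors did not pass it, with Pcsk1 at 0.43 (adjusted p 0.593) and Pcsk2 at -0.25 (adjusted p 0.413). The carboxypeptidase Cpe was at 0.13 (adjusted p 0.336).

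Of the other neuropeptide and cerebellin precursors, 12 of 19 were tested, 5 rose and 3 fell. Over all 9351 genes tested, 2.02% rose and 1.6% fell past the threshold. Avp, Gal, Npy and Crh, counted here, mark subtype gates, so these counts are not independent of the levels over gates. Tac1, the precursor of substance P, stood at 563, 480, 620 and 520 CPM in the positive sums and 277, 213, 161 and 153 CPM in the negative ones. The groups did not overlap (log2 fold change 1.41, SE 0.09, adjusted p 2.01e-16). Matched on depth and subtype gate, Tac1 rose by 0.913, still past the threshold. Npy, a gate marker, was 291, 104, 149 and 55 CPM in positive and 927, 400, 397 and 1158 CPM in negative sums, without overlap (-2.09, SE 0.15). Crh, which encodes corticotropin-releasing hormone, was lower in 4 of 4 libraries (-0.79, SE 0.09). In cells thinned to 1000 UMIs Crh was at -0.445 and not past the threshold (edgeR adjusted p 0.313). With DESeq2 these 3, Tac1, Npy and Crh, were the members past the threshold, beside 78 of all 9351 genes. Npy and Crh mark gates.

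Avp and Gal rose by 3.46 (SE 0.28) and 2.58 (SE 0.20), but unevenly. These SEs come from the edgeR fit and do not measure the spread over libraries. Gal was 1559 CPM in the positive sum of library 2 and 77.6 in that of library 4, against 99.9 and 68.2 in the negative sums. Avp had no UMI in the positive sum of library 4, against 26.2 CPM in the negative one. With DESeq2 neither was past the threshold (Avp 3.86, adjusted p 0.806; Gal 2.39, adjusted p 0.0972). Nts, the neurotensin precursor, rose by 0.69 (SE 0.09), and its adjusted p was 0.0616 with negative cells matched on depth. Cbln1, a synapse organiser of the cerebellin family, rose by 1.80 and stood at 1.17 without library 4 (adjusted p 0.243). Vip, the precursor of vasoactive intestinal peptide, fell by 1.93 and had no UMI in 2 of the 4 positive sums. It stood at -1.38 without library 2 (adjusted p 0.107) and at -5.14 without library 3. Penk and Pdyn, the opioid precursors, were at -0.01 and 0.09 (adjusted p 0.969 and 0.891).

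Of 16 cAMP and activity-regulated genes tested, 3 rose and none fell, with a median of 0.09. Among all 9351 genes, 2.02% rose and 1.6% fell past the threshold. Prkacb, a catalytic subunit of protein kinase A, rose by 0.31 (SE 0.05, adjusted p 5.73e-05) in 4 of 4 libraries, and its adjusted p was 0.237 when negative cells were matched on depth and subtype gate. Fos and Junb, immediate early genes, rose by 0.64 and 0.52 in 4 of 4 libraries. Fos was at 0.51 without library 2 (adjusted p 0.083), and Junb at 0.46 without library 1 or 4 (adjusted p 0.121 and 0.137). With at most 5% mitochondrial UMIs, Prkacb, Fos and Junb did not pass (edgeR adjusted p 0.0738, 0.317 and 0.119). In cells thinned to 1000 UMIs Prkacb passed, and Fos and Junb did not (edgeR adjusted p 0.48 and 0.162). Matched on depth and subtype gate, Fos passed and Junb did not (edgeR adjusted p 0.565). Prkacb alone of the list passed with DESeq2, beside 78 of all 9351 genes. Creb1 itself was at -0.39 (adjusted p 0.149), and Egr1 at 0.16 (adjusted p 0.537). The cells had been dissociated, and the part of dissociation in these genes was not tested.

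None of 8 tested dopamine and striatal signalling genes passed the threshold with edgeR, none with DESeq2, 3 had an unadjusted p under 0.05 with edgeR, beside 1242 of all 9351 genes (13.3%), and the list's median was -0.07. Adcy5, an adenylyl cyclase, was at 0.51 (adjusted p 0.0595) and Ppp1r1b at -0.39 (adjusted p 0.111). The dopamine receptor genes Drd1, Drd2 and Drd3 had too few counts to be tested. Gpr160, the proposed receptor, had 2 UMIs in 2 GABAergic neurons and 4 in all kept cells.

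Of 21 transcription factors and steroid-related genes tested, 4 rose and 5 fell, beside 2.02% and 1.6% of all 9351 genes. Cyp19a1, the aromatase that makes estradiol, rose by 1.98 (SE 0.40), from 3.95 to 16.3 mean CPM in 4 of 4 libraries, and its adjusted p was 0.0826 with DESeq2. It had 68 UMIs in all, with as few as 4 in a positive sum, and was tested in 10 of 16 alternatives. The matched fits, the thinned fit and the fit with at most 5% mitochondrial UMIs did not include it. Satb1, a chromatin organiser, rose by 1.42 (SE 0.21) and Nr2f2, a nuclear receptor of the caudal ganglionic eminence, by 0.92 (SE 0.10), each in 4 of 4 libraries. Id2, an inhibitor of helix-loop-helix factors, rose by 0.73, but was at 0.09 when matched on depth and subtype gate (adjusted p 0.954). Zic4, Zic1, Tshz1, Six3 and Meis2 were lower in 4 of 4 libraries, by log2 values from -2.44 for Zic4, which had no UMI in the positive sum of library 4, to -0.42 for Meis2. All but Meis2 also mark gates listed above among those lower in Cartpt, so their fall is not independent of those levels. Six3 was at -0.53 without library 4 (adjusted p 0.0788). Matched on depth and subtype gate, Zic1 was at -0.54 (adjusted p 0.587), Six3 at -0.28 (adjusted p 0.756) and Meis2 at -0.29 (adjusted p 0.0977). Matched on depth only, Meis2 was at -0.21 (adjusted p 0.267). With DESeq2, Nr2f2, Satb1, Meis2, Zic1 and Tshz1 passed, 5 members in all, beside 78 of all 9351 genes. With no replicate block, of the 26 genes named from all lists only Scg2, Tac1, Npy, Avp and Satb1 passed. Of these, Npy and Avp mark gates. The estrogen receptor Esr1 was at 0.32 (adjusted p 0.620).

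Zic1 and Zic4 overlap each other, and Junb, Cbln1, Nr2f2, Six3, Penk and Ppp1r1b lie over genes of the other strand, as Cadps2 does over genes of its own. As the counting strand was not given in the sources used here, their values are uncertain. Markers of other cell types overlapped between the sums: oligodendrocyte markers together had 14.3 to 45.0 CPM in positive and 18.0 to 46.1 CPM in negative sums, and astrocyte markers 6.24 to 18.3 and 11.5 to 35.6 CPM. Of 6 microglial markers, 5 were at 0 in the positive sums.

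**Figure D4:**
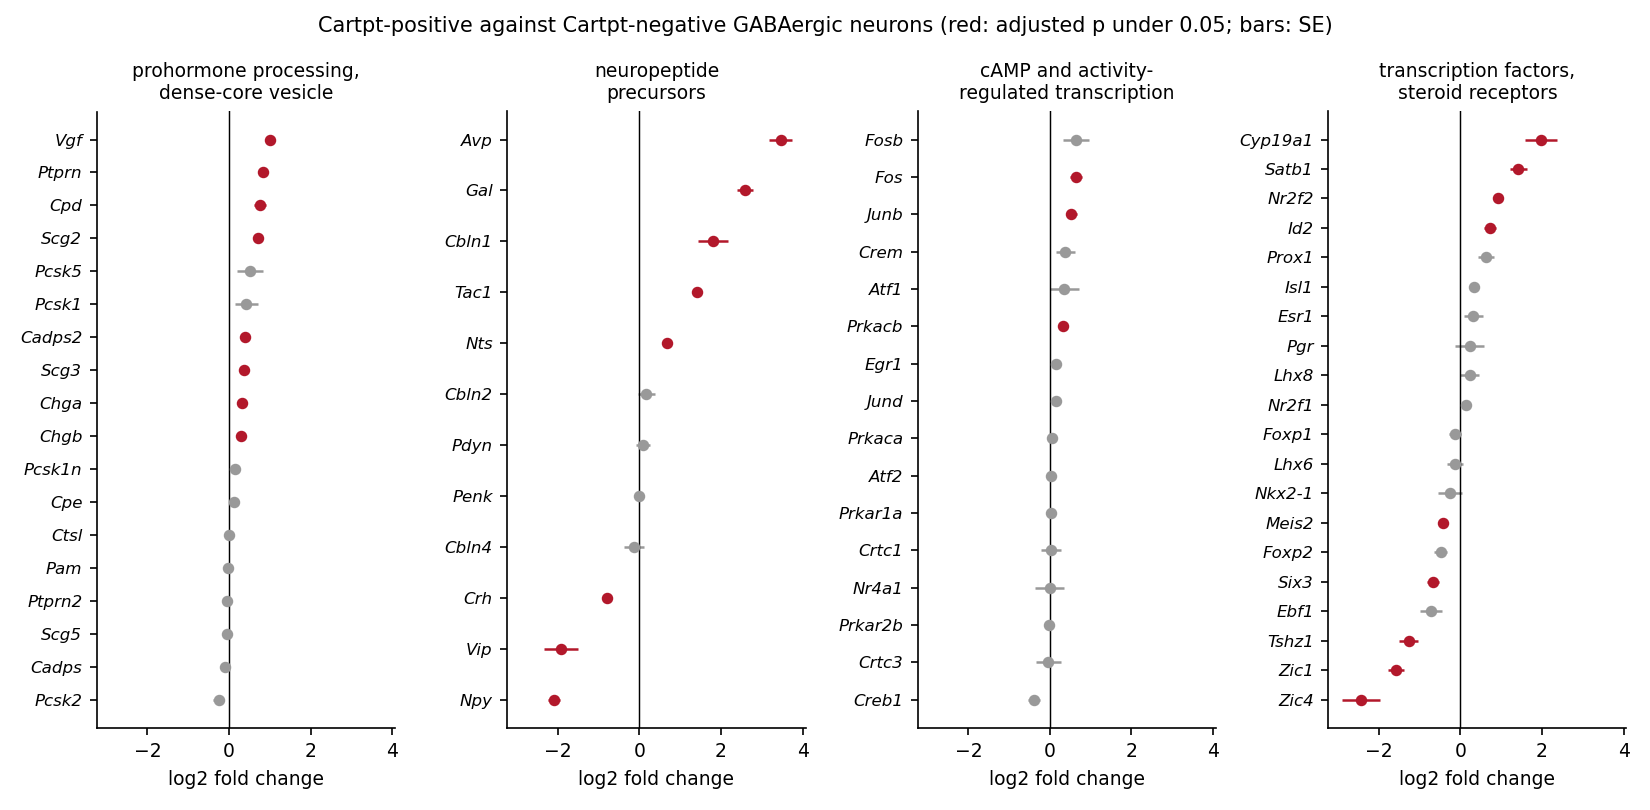
Log2 fold change with its SE for the reported tested genes of 4 of the 5 lists, Cartpt-positive against Cartpt-negative GABAergic neurons, with genes past an adjusted p of 0.05 in red. The SE comes from the edgeR fit and is not the spread over libraries. In the processing and vesicle list, all 8 red genes lie to the right of 0, and in the precursor list red genes lie on either side, from Avp at 3.46 to Npy at -2.09.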

How the data were processed

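The deposited tables hold raw UMI counts per gene and cell barcode, made by the authors from Drop-seq libraries. The submitters' processing notes name bcl2fastq 2.18.0.12, STAR 2.4.2a, Picard 2.2.4 and the builds mm10 and GRCm38, and the annotation, strand and barcode rule were not given in the sources used here. Cells needed 400 detected genes or more and no more than 10% mitochondrial UMIs. Scrublet (scanpy 1.11.5, expected rate 0.05) then removed 58 of 4239 cells (1.37%). Of the 20136 gene names, 18830 (93.5%) were found in GENCODE vM21. The members, gates, lists and tests were chosen with earlier results of these data known, and the comparisons of Sst with Npy and of Cck with Pnoc cells were added while analysing. Named list genes are those past the threshold, at most 6 per list and direction, and untested or uncalled genes named beside them, with Chga and Chgb, were picked after their values were seen. A level in CPM divides a gate's summed Cartpt UMIs by its summed UMIs. Means use libraries with at least 10 cells (glutamatergic neurons: all). A share at 1000 UMIs is the mean chance that 1000 UMIs drawn from a cell include the gene. Odds ratios are Mantel-Haenszel over libraries and depth quartiles. Limits for a count of 0 use 3 counts. Sums per library were tested by edgeR 4.0.16 (R 4.3.3), using filterByExpr, TMM factors, the quasi-likelihood test and Benjamini-Hochberg adjustment. Library was a block because each pair of sums shares its mice, and DESeq2 1.42.0 was an alternative. Some list members are counted in their lists but not reported here by name. Adjusted p-values are over all genes tested. An SE is the absolute log2 fold change divided by the root of the F statistic, so it does not measure the spread over libraries.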

Additional observations from a re-analysis of the deposited data

Results flagged for a closer look

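Of 40 sets of 4 library values, 6 had a value standing far from the other 3. The 2 given by chance alone does not allow for sets that share cells or hold few UMIs, so no excess can be read from it. In glutamatergic neurons library 3 stood at 120.2 CPM against 0 to 7.46 in the others, and its share at 1000 UMIs at 8.98% against 0% to 1.29%; it had 7 such cells. In glia library 4 stood at 24.9 CPM against 7 to 9.90. The share of astrocytes with Cartpt at 1000 UMIs was 2.30% in library 3 and 0% in the others, and that of oligodendrocyte precursors 2.29% in library 1 and 0% in the others. That depth kept only 119 of 390 astrocytes and 84 of 153 precursors. Without thinning, the shares in libraries 1 to 4 were 0%, 1.16%, 1.85% and 2.41% for astrocytes. For precursors they were 2.78%, 0%, 0% and 2.22%. In the Zic1/Zic4 gate library 4 stood at 311.3 CPM against 12.6 to 45.1. Several of these values rest on 1 or 2 cells.

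Cartpt was also present in the 6019 barcodes outside the kept cells, which no comparison of gates uses. They held 595 Cartpt UMIs at 300.5 CPM, above the 1.51 CPM that a count of 0 would allow.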

How the results depend on the processing

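The 339 genes past the threshold became 83 with at most 5% mitochondrial UMIs, 197 and 78 with negative cells matched on UMIs and on UMIs and subtype gate, 41 in cells thinned to 1000 UMIs, 78 with DESeq2 and 190 to 298 without 1 library each. Libraries are pools of mice and pair the sums by design, and with no replicate block 18 genes passed. Id2 turned to -0.254 in thinned cells, where it did not pass. The 26 named list genes otherwise kept their direction under the alternatives run, and Scg2, Tac1, Npy and Satb1 kept the call in each of theirs. For Npy, which marks a subtype gate, the kept call is no separate support. The cause of these changes was not tested.

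The GABAergic level was 420.3 CPM with at most 5% mitochondrial UMIs, the glial level 21.9 CPM with doublets kept and 4.61 CPM with a minimum of 800 genes, and the GABAergic share 19.55% at 2000 UMIs. The log2 odds ratio of Cck was 1.27 with at most 5% mitochondrial UMIs against 1.72. Thinned to 1000 and 2000 UMIs it was 2.31 and 2.23, and that of Pnoc 1.135 and 1.143 against 0.70. That of Sst at 1000 UMIs was -1.246 against -0.20. As Spearman rho, likeness was 0.648 for Fam172a and 0.659 for Smim14. Leaving out 1 library gave r of 0.605 to 0.878 for Asun, 0.418 to 0.844 for Copz1, 0.316 to 0.766 for Fip1l1, 0.576 to 0.833 for Fam172a and 0.683 to 0.811 for Smim14. Depth limits the negative cells, some of which may hold undetected Cartpt RNA.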
